A study of Mus musculus with 11 samples.

Results

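The AP-1 family was followed here as 10 genes: Fos, Fosb, Fosl1, Fosl2, Jun, Junb, Jund, Atf3, Maff and Batf. They were chosen by name, out of 18194 genes that had at least 1 probe set annotated to them alone, and they were read by 14 probe sets. Where a gene had several, its brightest probe set over all arrays stood for it. The study followed skin transcripts after ABBV-075, also called mivebresib, which blocks the bromodomains by which BET proteins dock on acetylated histones. Whole skin was profiled on Affymetrix arrays, 1 array per mouse, from 3 mice given vehicle, 4 mice at 6 h after 1 mg/kg ABBV-075 and 4 mice at 24 h after the same dose. The labels number the replicates and speak of skin from a dosed mouse, but do not say outright that each replicate is a separate mouse, as is taken here; if some are not, p-values measure only a spread that may be technical. All mice are described only as mice kept free of specific pathogens; strain, age and sex were not given in the sources used here, nor was the time at which vehicle skin was taken.

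AP-1 is not 1 protein but a set of dimers of Jun, Fos, Atf, Maf and Batf proteins, which pair through their leucine zippers. Not every pairing forms. In epidermis these dimers are known for their part in keratinocyte proliferation, differentiation and wound responses. Fos, Fosb, Junb and Atf3 are immediate early or stress genes with short-lived transcripts, whereas Jund is known as the steadily expressed member.

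None of the AP-1 genes passed the test at either time, where 0% of the 13710 genes tested passed. Atf3, a stress-induced member, came closest. Its level at 24 h was 0.89 ± 0.25 (SE) lower than in vehicle on the log2 scale, or 0.540-fold. Every 24 h array lay below every vehicle array for Atf3, as for 6.02% of the 13710 genes tested. Fosl2 lay above vehicle in every 6 h array, by 0.41 ± 0.23, as did 9.77% of the genes tested. Its second, dimmer probe set ran the other way at 6 h, by -0.69 ± 0.26 in a separate fit over all probe sets. Fos varied more between mice of 1 group than it differed between groups, with 1 mouse at 6 h far above the rest. Fosb and Fosl1 were at or near the floor of the measurement in most arrays. The comparisons at 6 h and at 24 h share the same 3 vehicle arrays.

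Promoter sequences of the members with the largest difference (Atf3) and the widest spread between mice (Fos) are shown as the 250 bases before the annotated start, from RefSeq on GRCm38.p6, 5′ to 3′ along the gene. Capitals mark the letters TGACG read on either strand (CGTCA on the other), the core of the cyclic AMP response element that CREB, ATF and some AP-1 dimers are known to bind, and TATAAA. The Fos window is chr12:85473640-85473889 on the plus strand and the Atf3 window is chr1:191183334-191183583 on the minus strand.
Fos: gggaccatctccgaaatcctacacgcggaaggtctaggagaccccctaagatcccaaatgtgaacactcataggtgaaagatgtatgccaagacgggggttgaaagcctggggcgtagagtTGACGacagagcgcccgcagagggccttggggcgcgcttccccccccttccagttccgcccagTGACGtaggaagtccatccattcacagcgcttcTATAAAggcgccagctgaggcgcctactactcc
Atf3: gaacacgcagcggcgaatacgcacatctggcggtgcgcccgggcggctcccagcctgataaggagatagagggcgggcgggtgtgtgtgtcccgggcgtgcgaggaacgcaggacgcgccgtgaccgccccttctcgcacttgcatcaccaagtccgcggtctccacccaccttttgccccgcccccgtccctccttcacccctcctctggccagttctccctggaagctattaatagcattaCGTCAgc

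In Fos the TGACG matches lie 129 to 125 and 66 to 62 bases before the start, and TATAAA 33 to 28 bases before it. In Atf3 the match lies 7 to 3 bases before the start. Promoter windows were found for 9 of the 10 genes, 11 windows in all since Maff has 3 annotated starts. Of the 11 windows, 7 held TGACG, in 6 genes, against 17.8% of 32851 windows of all genes. The full element TGACGTCA, which contains TGACG on both strands, was found in 1 of the 11, a Maff window, against 1.55%. TATAAA was found in 1 of 11, that of Fos, against 12.4%. The AP-1 site TGAGTCA, searched on both strands, was found in 0 of the 11, against 4.46%, and the CArG box of serum response factor in 0 of 11, against 1.47%. A site of the NF-kB kind was found in 3 of 11, against 7.91%. These matches describe letters in a short window, and a window without a match says nothing about sites elsewhere.

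The values below are log2(intensity + 16) after quantile normalization, so that 4.00 is the floor, and a gene was kept when 3 or more arrays had it above their own 40th percentile, a level of about 5.21. By that filter 8 of the 10 members were kept among 13710 genes. Before normalization the arrays differed in brightness: the trimmed mean intensity ran from 205 to 244 in vehicle, from 82.8 to 244 at 6 h and from 116 to 183 at 24 h. The 5′ to 3′ signal ratio of beta-actin, which falls as RNA shortens, ran from 0.484 to 0.593 in vehicle, from 0.0725 to 0.425 at 6 h and from 0.198 to 0.529 at 24 h, with the lowest ratio in 6 h replicate 5. Basal keratinocyte markers were above vehicle in 7 of 7 at both times, with the list at 9.91 to 10.6 in vehicle, 9.92 to 11.5 at 6 h and 10.3 to 12.1 at 24 h. Macrophage and dendritic cell markers (8 of 8 below vehicle at both times) ran from 9.68 to 10.5 in vehicle, from 8.54 to 9.56 at 6 h and from 7.47 to 9.76 at 24 h. Markers of fibroblasts (6 of 6), adipocytes (4 of 4) and mast cells (4 of 4) were also below vehicle at both times. The 24 h replicate 4 stood apart, with the highest basal keratinocyte list and the lowest macrophage, adipocyte (8.57) and mast cell (5.35) lists. In whole skin, fewer cells of a type and less RNA per cell cannot be told apart, and the part of these differences in the AP-1 values was not tested. Precision is limited by there being 3 or 4 arrays in a group.

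**Figure D1:**
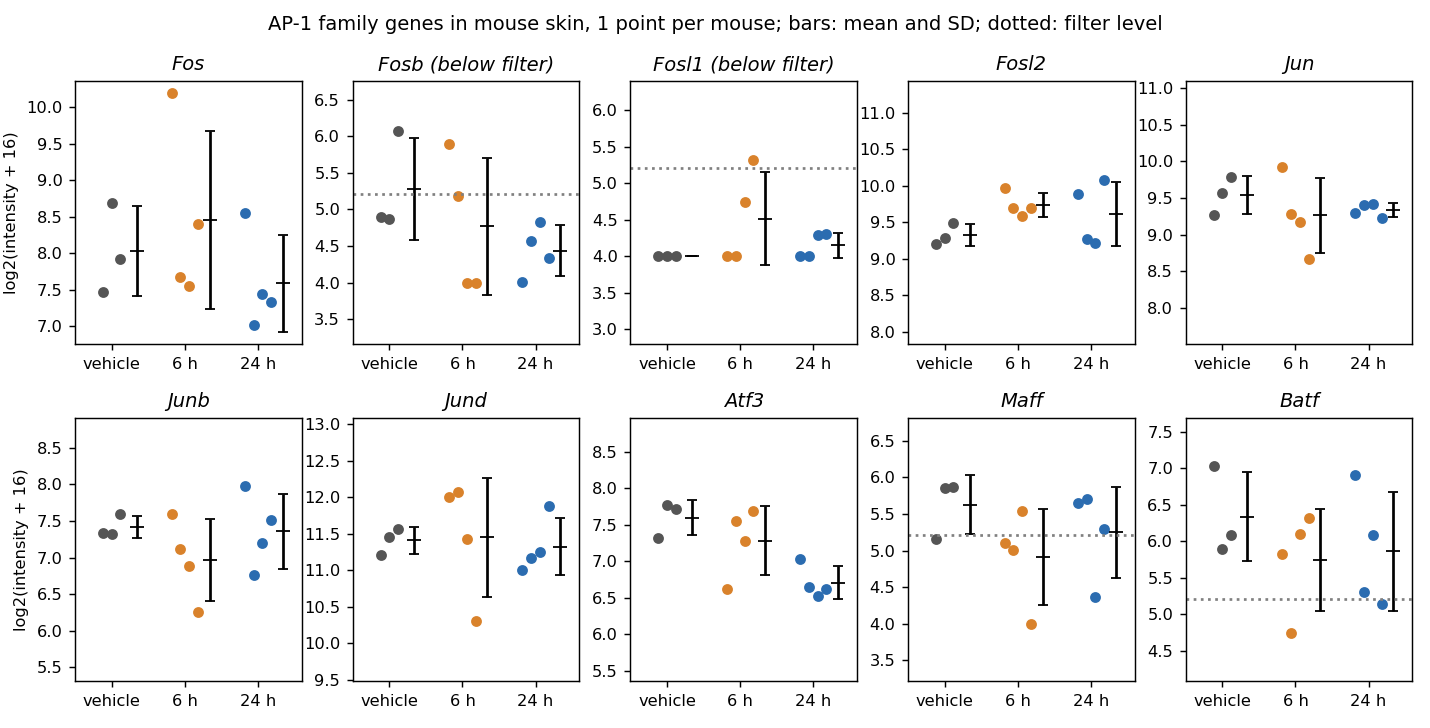
Level of each AP-1 gene in each mouse, as log2(intensity + 16) after quantile normalization, with group mean and SD beside the points; each panel has its own axis and the dotted line is the filter level of 5.21. The 24 h values of Atf3 (6.53 to 7.03) lie below its vehicle values (7.32 to 7.77), and Fos reaches 10.20 in 1 mouse at 6 h.

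Fos, the founding member whose product needs a partner such as a Jun protein to bind DNA, read 7.46, 8.68 and 7.93 in vehicle replicates 1, 3 and 4. At 6 h it read 10.20, 7.67, 7.54 and 8.39 in replicates 1, 2, 3 and 5. At 24 h it read 7.44, 8.55, 7.02 and 7.32 in replicates 1 to 4. A single mouse at 6 h stood far above every other mouse of the series, while the other 3 mice at that time lay among the vehicle mice. Vehicle skin averaged 8.02 ± 0.62 (SD, n = 3), skin at 6 h averaged 8.45 ± 1.22 (SD, n = 4), and skin taken at 24 h averaged 7.58 ± 0.67 (SD, n = 4). The difference from vehicle was 0.43 at 6 h, with a 95% interval of -0.89 to 1.74, and -0.44 at 24 h, with an interval of -1.75 to 0.87 (limma adjusted p = 0.752 and 0.866). Without 6 h replicate 1 the 6 h difference was -0.15, and in the intensities as deposited it was -0.38. Its pooled SD within groups, 0.908, exceeded that of 96.6% of the genes kept, whose median was 0.344.

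Fosl2 encodes FRA-2, a Fos relative that lacks the strong activation domain of Fos. Its vehicle values were 9.21, 9.29 and 9.49 in replicates 1, 3 and 4. The 6 h values were 9.97, 9.70, 9.59 and 9.70 in replicates 1, 2, 3 and 5, and the 24 h values were 9.22, 9.89, 9.27 and 10.08 in replicates 1 to 4. At 6 h the groups did not overlap, and at 24 h 2 mice lay at the vehicle level and 2 above it. The difference was 0.41 ± 0.23 (SE) at 6 h, with an interval of -0.088 to 0.91 (limma adjusted p = 0.400), and 0.29 ± 0.23 at 24 h (adjusted p = 0.755). As deposited, where the median gene lay 0.68 and 0.62 below vehicle, Fosl2 lay below vehicle at both times, by -0.37 and -0.45.

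The second Fosl2 probe set, far dimmer, ran the other way at 6 h. At that time it was above the filter level in only 2 of 4 arrays, with a deposited intensity as low as 1.97, against 386 or more for the main probe set. It read 5.70, 5.91 and 5.91 in vehicle, 5.72, 5.11, 4.37 and 5.39 at 6 h and 5.95, 5.73, 5.87 and 5.98 at 24 h, in the same order of replicates. Its 6 h difference was -0.69 ± 0.26 (SE), and the 24 h arrays lay above every 6 h array on it, by 0.73 ± 0.24. Averaging both probe sets gave a Fosl2 difference of -0.14 at 6 h, so the direction at 6 h rested on which probe set was read.

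Fosb and Fosl1 did not pass the filter. Fosb, an immediate early gene best known from neurons, read 4.89, 4.86 and 6.08 in vehicle, 5.90, 5.19, 4.00 and 4.00 at 6 h and 4.82, 4.01, 4.57 and 4.34 at 24 h. Every 24 h value of Fosb lay below every vehicle value, as for 6.02% of the 13710 genes kept, of which Fosb is not one. However, 2 of the 3 vehicle values and all 4 at 24 h were below the filter level. With no filter its 24 h difference was -0.84 ± 0.50 (SE; limma adjusted p = 0.706 over 18194 genes). Fosl1, which encodes FRA-1 and is known from invading and wounded epithelium, was at the floor in all 3 vehicle arrays, in 2 of 4 at 6 h and in 2 of 4 at 24 h. Its highest value, 5.32, came from 6 h replicate 5, the array with the lowest actin ratio. The members just inside the filter were Maff, above the level on 6 arrays, and Batf on 9. Just outside it were Fosb on 2 arrays and Fosl1 on 1.

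Jun, whose product is the central partner of the family, read 9.27, 9.56 and 9.79 in vehicle. The 6 h values were 9.93, 9.28, 9.17 and 8.67 in replicates 1, 2, 3 and 5, and those at 24 h were 9.42, 9.30, 9.41 and 9.23 in replicates 1 to 4. The groups overlapped at both times, and the 24 h mice lay closer to each other than the 6 h mice did. The difference from vehicle was -0.28 ± 0.26 (SE) at 6 h and -0.20 ± 0.26 at 24 h (limma adjusted p = 0.614 and 0.855). A second Jun probe set differed by 0.11 ± 0.21 at 6 h and 0.18 ± 0.21 at 24 h, on the opposite side of vehicle. Without the 3 arrays whose actin ratio was under 0.3 (6 h replicates 3 and 5 and 24 h replicate 2), a fit chosen after seeing the data, Jun differed by 0.063 at 6 h.

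Junb, a Jun relative that can restrain Jun, read 7.33, 7.33 and 7.60 in vehicle. At 6 h it read 7.60, 7.12, 6.88 and 6.25 in replicates 1, 2, 3 and 5, and at 24 h 7.19, 7.98, 6.75 and 7.51 in replicates 1 to 4. Of the 6 h mice, 3 lay below every vehicle mouse and the fourth was level with the highest. The difference was -0.46 ± 0.33 (SE) at 6 h and -0.061 ± 0.33 at 24 h (limma adjusted p = 0.522 and 0.970). Without 6 h replicate 5 the 6 h difference was -0.22, and without the 3 arrays of low actin ratio it was -0.059. The 24 h difference turned to 0.14 without 24 h replicate 3 and to 0.027 without vehicle replicate 4.

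Jund, the member usually transcribed in resting cells, read 11.20, 11.46 and 11.56 in vehicle. At 6 h it read 11.997, 12.07, 11.43 and 10.30 in replicates 1, 2, 3 and 5, and at 24 h 11.25, 10.996, 11.16 and 11.88 in replicates 1 to 4. The 6 h mice lay on both sides of vehicle, with the lowest value again in replicate 5. The difference was 0.041 at 6 h, with a 95% interval of -0.80 to 0.88, and -0.087 at 24 h, with an interval of -0.93 to 0.75 (limma adjusted p = 0.969 and 0.963). The 6 h value was 0.42 without replicate 5 and -0.17 without replicate 2. In the deposited intensities the 6 h difference of Jund was -0.63, and with cyclic loess it was -0.070. A second Jund probe set was near the floor, at 4.31 to 4.72 in vehicle, 4.00 to 5.05 at 6 h and 4.49 to 5.29 at 24 h. It differed from vehicle by 0.076 ± 0.28 (SE) at 6 h and 0.46 ± 0.28 at 24 h. The setting that takes the mean of probe sets averages this dim one with the main one.

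**Figure D2:**
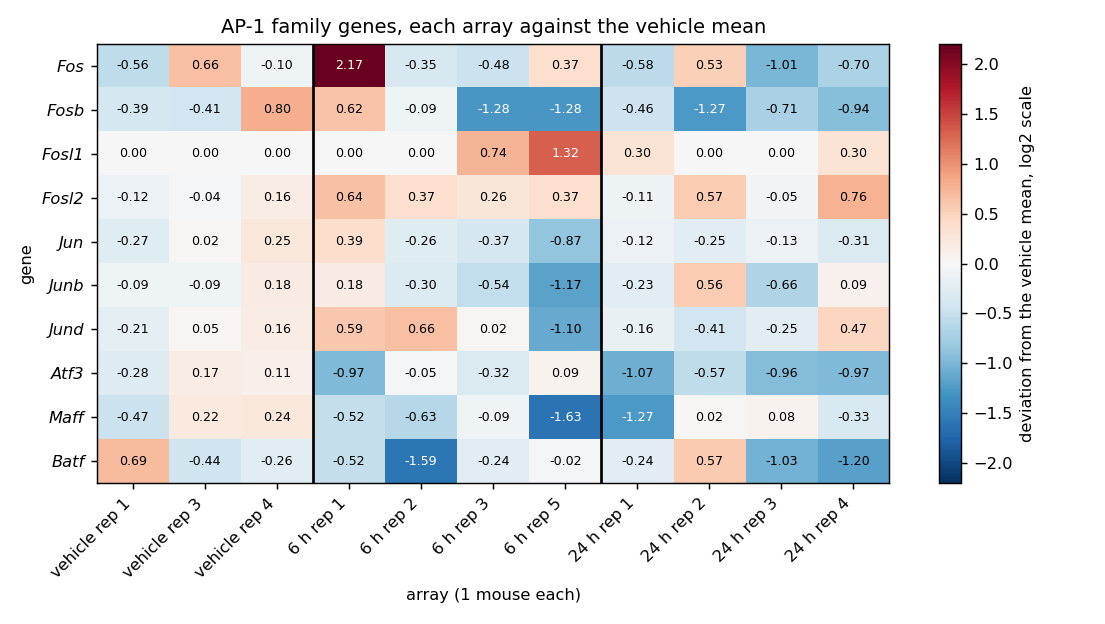
Deviation of each array from the vehicle mean of the gene, on the log2(intensity + 16) scale, for the 10 AP-1 genes in rows and the 11 mice in columns; black lines part vehicle, 6 h and 24 h. Fos stands at 2.17 in 6 h replicate 1, Jun, Junb, Jund and Maff are lowest in 6 h replicate 5, and Atf3 is below 0 in all 4 mice at 24 h.

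On their main probe sets Jun, Junb, Jund and Maff all had their lowest value of the series in 6 h replicate 5, at -0.87, -1.17, -1.10 and -1.63 from the vehicle mean. The other kept members did not: Fos and Fosl2 stood at 0.37 each, Atf3 at 0.085 and Batf at -0.023. The second Jun probe set read 8.86 in that array, above its vehicle values of 8.24 to 8.76. How many of all genes had their lowest value there was not counted. The beta-actin ratio of 6 h replicate 5 was 0.0725 and its Gapdh ratio 0.104, where the other 10 arrays had Gapdh ratios of 0.684 to 1.08. With the actin ratio as a covariate, a fit chosen after seeing the data, Jun differed from vehicle by 0.20 at 6 h, on the other side of vehicle, and no member was called. Over the 11 mice, Jun and Junb had a Pearson r of 0.648 (permutation p = 0.0332, adjusted p = 0.436 over 28 pairs of members) and a Spearman rho of 0.518 (permutation p = 0.107). Within groups their r was 0.627. Without the 2 arrays farthest from the Jun median, a check chosen after seeing the data, the r was 0.209. Dropping the extremes of Jun narrows its range and can by itself lower r, so this check cannot show where the relation rests. For Jun and Jund r was 0.643 (permutation p = 0.0368, adjusted p = 0.436), rho was 0.373 (permutation p = 0.261) and r without the 2 farthest arrays was -0.048. Within groups the r of Jun and Jund was 0.697.

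Jund and Batf ran in opposite directions, with an r of -0.604 (permutation p = 0.0467, adjusted p = 0.436), a rho of -0.718 (permutation p = 0.016, adjusted p = 0.447) and an r of -0.653 within groups. That relation kept an r of -0.564 without the 2 arrays farthest from the Jund median. The 3 arrays with the highest Jund (6 h replicates 1 and 2 and 24 h replicate 4) also had the highest basal keratinocyte lists (11.5, 11.3 and 12.1) and the lowest macrophage and dendritic cell lists (8.54, 8.62 and 7.47). The part of these markers in the relation was not tested. No pair passed after adjustment over the 28.

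Atf3, a stress-induced partner and often a repressor, read 7.32, 7.77 and 7.71 in vehicle replicates 1, 3 and 4. At 6 h it read 6.63, 7.55, 7.28 and 7.68 in replicates 1, 2, 3 and 5. At 24 h it read 6.53, 7.03, 6.64 and 6.63 in replicates 1 to 4. At 6 h 1 mouse was at the 24 h level, another lay just below the lowest vehicle mouse and 2 lay within the vehicle range, whereas at 24 h all 4 mice lay below all vehicle mice. The vehicle mean was 7.60 ± 0.24 (SD, n = 3), the 6 h mean 7.28 ± 0.47 (SD, n = 4) and the 24 h mean 6.71 ± 0.22 (SD, n = 4).

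The 24 h difference of Atf3 was -0.89 ± 0.25 (SE), with a 95% interval of -1.45 to -0.33 and an unadjusted p of 0.00474 that ranked it 111th of the 13710 genes in limma's test. Adjusted over all genes it did not pass (limma adjusted p = 0.531). Against 6 h, the 24 h level differed by -0.58 ± 0.24 (limma unadjusted p = 0.0318, adjusted p = 0.489), and the 6 h level differed from vehicle by -0.31 ± 0.25 (adjusted p = 0.565). When any 1 array was left out the 24 h difference ran from -1.03 to -0.81 (adjusted p = 0.459 to 0.999), and from -1.50 to -0.66 over the other settings. It passed in 1 of them, limma with array weights (-1.08, adjusted p = 0.0425), with adjusted p of up to 0.640 in the others. As deposited, Atf3 intensities were 195 to 306 in vehicle, 65.7 to 131 at 6 h and 60.6 to 91.3 at 24 h. Those values carry the difference in array brightness, and the as-deposited 24 h difference of -1.50 stood beside a median of -0.62 over all genes.

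Maff, a small Maf protein without an activation domain of its own, read 5.16, 5.85 and 5.87 in vehicle. At 6 h it read 5.11, 5.003, 5.54 and 4.00 in replicates 1, 2, 3 and 5, and at 24 h 4.36, 5.65, 5.71 and 5.30 in replicates 1 to 4. All of these lie near the filter level, and the lowest 6 h value is the floor itself. Its difference was -0.72 ± 0.40 (SE) at 6 h and -0.38 ± 0.40 at 24 h (limma adjusted p = 0.405 and 0.827). Without 6 h replicate 5 the 6 h difference was -0.41, and with a pseudocount of 64 it was -0.30.

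Batf, which pairs with Jun proteins in lymphocytes and dendritic cells, read 7.03, 5.90 and 6.08 in vehicle. At 6 h it read 5.82, 4.75, 6.10 and 6.31 in replicates 1, 2, 3 and 5, and at 24 h 6.09, 6.91, 5.30 and 5.14 in replicates 1 to 4. The groups overlapped at both times and each held mice more than 1 log2 unit apart. Its difference was -0.59 ± 0.48 (SE) at 6 h and -0.48 ± 0.48 at 24 h (limma adjusted p = 0.569 and 0.817). Without vehicle replicate 1 these were -0.24 and -0.13. T cell markers averaged 5.82 to 6.17 in vehicle, 6.05 to 6.38 at 6 h and 6.16 to 6.42 at 24 h, with Cd4 at the floor in 7 of 11 arrays; the macrophage and dendritic cell values are given above, and their part in the Batf values was not tested.

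**Figure D3:**
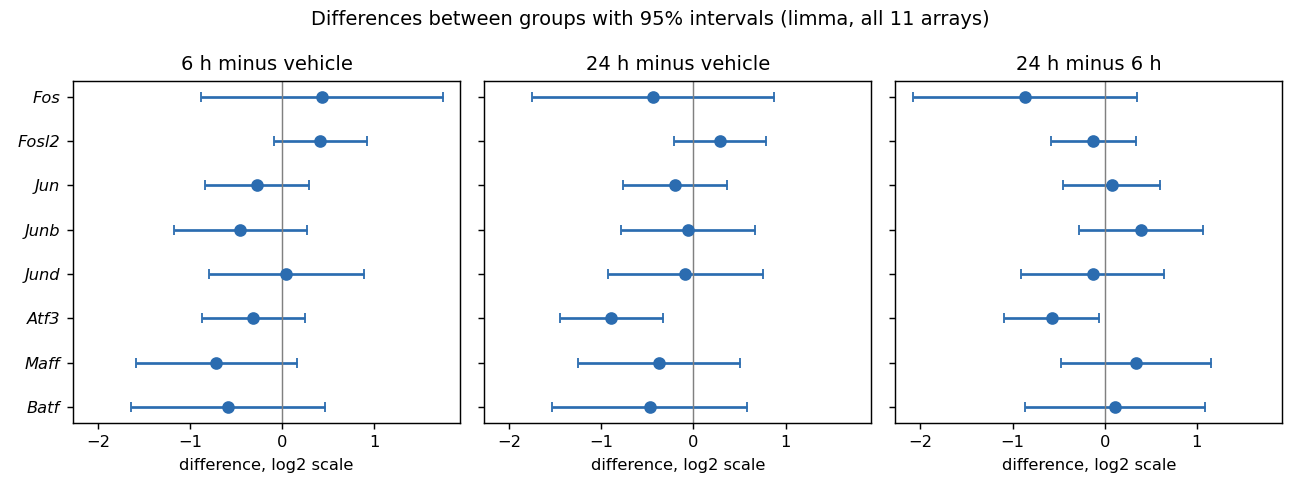
Difference between groups for the 8 AP-1 genes kept, on the log2(intensity + 16) scale, with 95% intervals from limma over all 11 arrays. The intervals of Atf3 lie below 0 for 24 h minus vehicle (-1.45 to -0.33) and for 24 h minus 6 h (-1.09 to -0.060), before any adjustment over genes, and all other intervals hold 0.

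Counted together, limma called 0 of the 8 kept members at 6 h, where it called 0% of the 13710 genes. At an unadjusted p under 0.05 it counted 0 members, against 16.1% of all genes. The groups did not overlap for 1 member, Fosl2, which lay higher, against 18.5% of all genes in either direction (9.77% higher and 8.77% lower). Of the 8, 5 differed from vehicle by less than 0, against 49.6% of all genes. The median difference over the kept members was -0.30, where the median over all genes was 0.0037. At 24 h limma again called 0 of 8, against 0% of all genes, and 1 member, Atf3, had an unadjusted p under 0.05, against 7.63% of all genes. Atf3 was also the 1 kept member whose groups did not overlap, against 11.1% of all genes in either direction (5.09% higher and 6.02% lower). Of the 8, 7 lay below vehicle, against 52.4% of all genes. The median was -0.29 against -0.020 over all genes. Between 24 h and 6 h 0 of 8 were called (0% of all genes), Atf3 again had an unadjusted p under 0.05 (9.27% of all genes), no member's groups were apart (5.46% of all genes), 4 of 8 lay lower (52.6% of all genes), and the median was -0.024 against -0.019. With array weights, which let less consistent arrays count for less, limma called 2498, 59 and 423 genes in the 3 comparisons, and of the members Atf3 alone, at 24 h. Without the 3 arrays of low actin ratio the 6 h median was 0.0023.

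**Figure D4:**
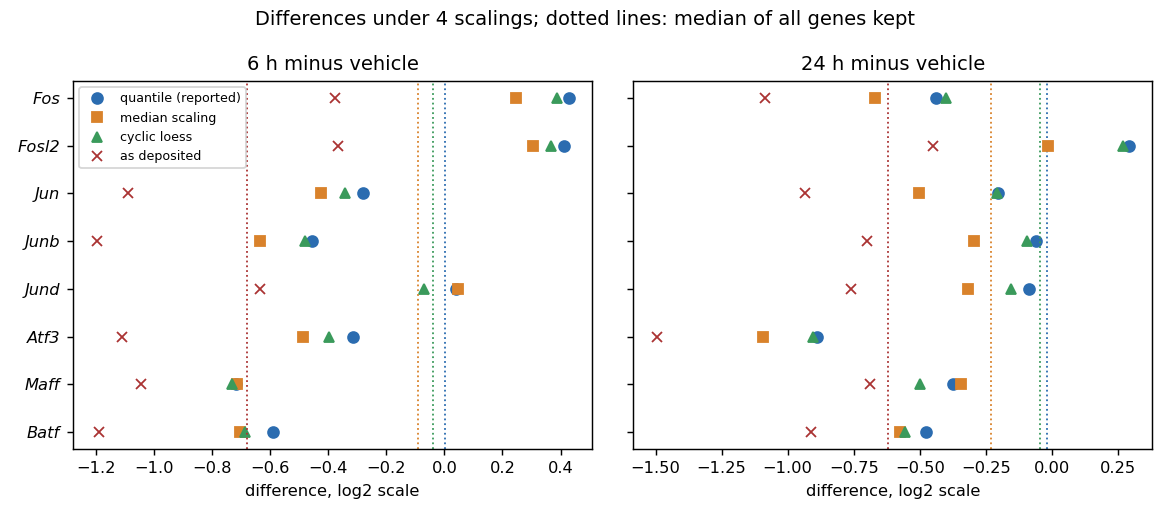
Difference from vehicle of the 8 AP-1 genes kept, on the log2(intensity + 16) scale, under 4 ways of scaling the arrays, with the median of all genes kept as dotted lines. Atf3 is the lowest member at 24 h under each of the 4, while Fos and Fosl2 at 6 h lie above 0 after 3 scalings and below 0 (-0.38 and -0.37) as deposited.

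The genes around the family were read from 6 lists. Of the other bZIP genes that can pair with these proteins, 10 of 11 were measured and 0 were called in either comparison with vehicle. Creb1, the CREB gene, read 9.05 to 9.18 in vehicle, 9.37 to 9.54 at 6 h and 9.40 to 9.68 at 24 h, apart from vehicle at both times. Its differences were 0.34 ± 0.15 and 0.41 ± 0.15 (SE; limma adjusted p = 0.291 and 0.562), but -0.45 and -0.32 as deposited. Batf2, known as an interferon-induced relative of Batf, differed by -0.73 ± 0.34 at 6 h and by -1.02 ± 0.34 at 24 h (adjusted p = 0.329 and 0.552).

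Among genes that act upstream, MAP kinases and serum response factor genes, 18 of 22 were measured and 0 were called, with medians of -0.036 at 6 h and -0.046 at 24 h. Mapkapk2, a kinase downstream of p38, read 9.37 to 9.90 in vehicle, 8.61 to 9.002 at 6 h and 8.90 to 9.24 at 24 h, below vehicle in every treated mouse. It differed by -0.71 ± 0.19 and -0.48 ± 0.19 (SE; limma adjusted p = 0.157 and 0.590). Mapk9, which encodes the Jun kinase JNK2, differed by -0.49 ± 0.16 at 24 h from vehicle (adjusted p = 0.541) and by -0.70 ± 0.15 from 6 h (adjusted p = 0.186). In both comparisons its groups were apart.

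Feedback genes, which limit MAP kinase activity or degrade immediate early transcripts, were kept for 12 of 13, with 0 called and medians of 0.0015 at 6 h and -0.20 at 24 h. Dusp4, a nuclear MAP kinase phosphatase, read 7.09 to 7.27 in vehicle, 5.93 to 6.60 at 6 h and 6.13 to 7.04 at 24 h. It differed by -0.91 ± 0.25 and -0.76 ± 0.25 (SE; limma adjusted p = 0.169 and 0.541), with the groups apart at both times. The immediate early genes outside the family, all 11 kept and 0 called, had medians of 0.0059 and -0.086. At 6 h 3 of the 11 lay above vehicle in every mouse, against 9.77% of all genes. These were Egr1, by 1.06 ± 0.46, Egr3, by 0.61 ± 0.19, and Ier5, by 0.59 ± 0.30 (limma adjusted p = 0.296, 0.192 and 0.365). For Egr1 the groups barely parted, with a lowest 6 h value of 9.774 and a highest vehicle value of 9.772. As deposited, Egr3 and Ier5 lay below vehicle, by -0.14 and -0.17. The 6 h mouse with the highest Fos also had the highest Egr1 (11.11) and Egr3 (10.52).

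Textbook AP-1 targets, such as protease and cytokine genes, were kept for 19 of 24, with 0 called and medians of -0.23 at 6 h and -0.068 at 24 h. Ccl2, a monocyte attractant, differed by -1.61 ± 0.65 at 6 h (SE; limma adjusted p = 0.269). Plaur, the urokinase receptor gene, differed by 0.59 ± 0.22 at 6 h (adjusted p = 0.246), but by -0.17 as deposited. Hmox1, the heme oxygenase gene, and Timp1, a protease inhibitor gene, differed by -1.01 ± 0.35 and -1.03 ± 0.45 at 24 h (adjusted p = 0.557 and 0.637), with all 4 treated mice below vehicle for both.

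Epidermal genes with known AP-1 sites were kept for 13 of 14, with 0 called. Of the 13, 11 lay above vehicle at 6 h, with a median of 0.32, and 7 at 24 h, with a median of 0.029, where 50.4% and 47.6% of all genes lay above vehicle. Flg, which encodes the barrier protein filaggrin, read 9.60 to 9.96 in vehicle, 10.03 to 10.82 at 6 h and 8.73 to 9.59 at 24 h. It lay above vehicle in every 6 h mouse, by 0.58 ± 0.25, and below it in every 24 h mouse, by -0.74 ± 0.25 (SE; limma adjusted p = 0.291 and 0.552); as deposited the 6 h difference was -0.19. Between 24 h and 6 h it differed by -1.32 ± 0.23 (adjusted p = 0.125, or 0.0216 with array weights). The other 4 suprabasal keratinocyte markers (Krt1, Krt10, Lor and Ivl) averaged 11.37 to 11.73 in vehicle, 11.52 to 12.14 at 6 h and 11.10 to 11.71 at 24 h, and their part in the Flg values was not tested. Sprr1a, a cornified envelope gene that AP-1 is known to drive, differed by -1.55 ± 0.72 at 6 h and -1.62 ± 0.72 at 24 h (adjusted p = 0.317 and 0.644).

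Several of these related genes passed at 6 h in other settings, in which many other genes passed too. As deposited, limma called 859 of 13707 genes, 2 of them higher, with a median over all genes of -0.68. With array weights it called 2498 of 13710, 1057 of them higher. The genes named here had been picked for the smallest p in their lists. Dusp4 (adjusted p = 0.0433 and 0.0274), Dusp6 (0.0316 and 0.0276), Mapkapk2 (0.035 and 0.0192), Ccl2 (0.0167 and 0.0137) and Sprr1a (0.0415 and 0.0487) passed in limma both as deposited and with array weights, each below vehicle. With array weights alone limma also called Creb1 (adjusted p = 0.0244), Egr3 (0.0197), Flg (0.0439) and Ivl (0.0327) above vehicle and Batf2 (0.020) below it, and as deposited alone Tgfb1 (0.040) below it. Between 24 h and 6 h, limma with array weights called Mapk9 (adjusted p = 0.0326) as well as Flg, among 423 of the 13710 genes.

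**Figure D5:**
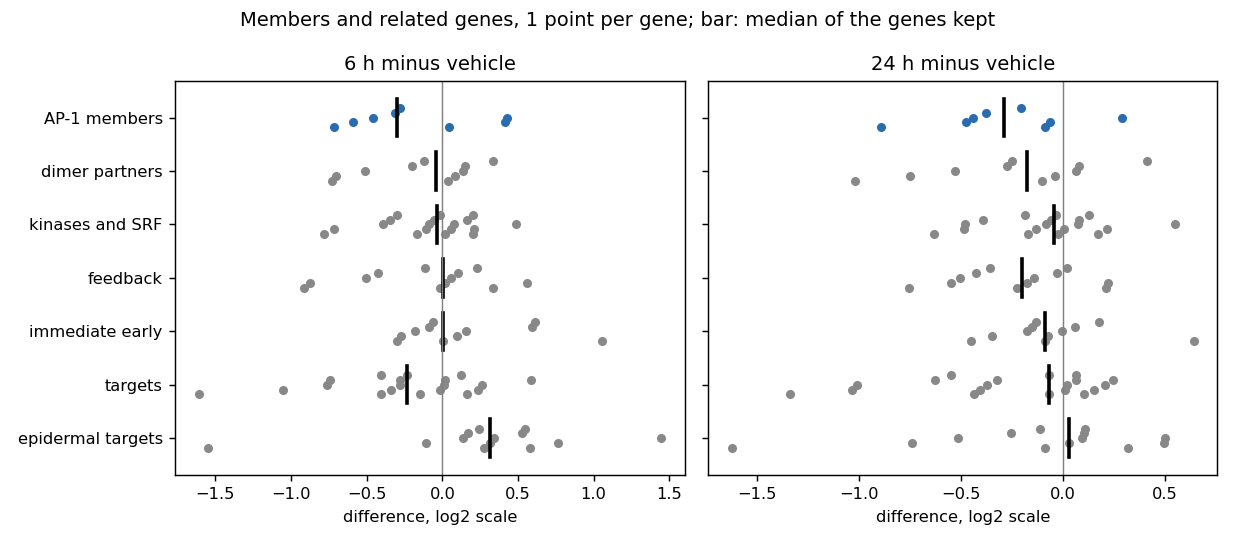
Difference from vehicle at 6 h and at 24 h of the 8 AP-1 genes kept (blue) and of the genes of 6 related lists (grey), on the log2(intensity + 16) scale; each point is 1 gene and each bar a list's median. The AP-1 median is -0.30 and -0.29, and no gene shown passed limma's test over all genes.

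Genes whose pattern over the 11 mice was most like that of a member were sought for Fos, Junb and Jund. For Fos these were Carmil1 (r = 0.865), Wrnip1 (0.863), Slc35d1 (0.861), Rbmxl1 (0.845) and Dusp1 (0.836), the last a MAP kinase phosphatase that is itself an immediate early gene. All 5 had their highest value in 6 h replicate 1, the mouse with the highest Fos. For Junb they were Ccdc91 (r = 0.952), Ywhah (0.917), Mettl1 (0.905), Marchf9 (0.899) and Bicdl2 (0.884), and 4 of these 5 peaked in 24 h replicate 2, where Junb did. That array also had the highest hair shaft markers (8.68), with 8.30 in vehicle replicate 4 and 5.25 to 6.21 in the other arrays, and their part in the likeness was not tested. For Jund they were Zswim8 (r = 0.979), Ahdc1 (0.966), Niban2 (0.961), Sbsn (0.955) and Ptms (0.954). These are the highest of 13710 correlations each and describe these arrays, which share differences in RNA ratio and brightness; no test was made of them.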

How the data were processed

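Total RNA (200 ng) from the skin of 11 mice was labelled with a 3′ IVT Plus kit, per the labels' protocols. For each array the authors deposited intensities of 45101 probe sets, not logged; what software, background correction and scaling produced them is not stated in the labels or files read. Negative values made up 12.9% to 16.6% of an array. Intensities were quantile-normalized, set to at least 0 and taken as log2(intensity + 16), a scale that understates the change of dim genes. Probe sets numbered 34958 with 1 gene, 932 with several and 9211 unnamed here; outdated symbols were replaced by way of the Entrez number. Groups were compared in R 4.3.3 by limma 3.58.1 (lmFit, then eBayes), with all 11 arrays in 1 fit and no covariates, two-sided, with Benjamini-Hochberg adjustment over 13710 genes and a threshold of 0.05. Differences and SEs of second probe sets came from a separate limma fit over all 45101 probe sets, with no filter. Their SEs are therefore not from the fit over genes. Intervals are unadjusted 95% intervals. Correlations were tested with 100000 permutations of all 11 arrays, made without regard to group.

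Members, lists and settings were chosen with earlier results of these data known. Named genes were all members, up to 3 genes of smallest p per list and comparison, and the 5 most alike for Fos, Junb and Jund (Fosl1 was not kept). Alternatives covered scaling, pseudocount, filter, probe set choice, variance model, array weights, samples fitted, replicate block and each array left out. The 2 alternatives using the actin ratio, and the correlations without the 2 farthest arrays, were chosen after seeing the data. Same-numbered vehicle and 24 h arrays had deviations that correlated at 0.246, 0.135 and 0.205 over genes. Differently numbered ones gave -0.35 to 0.211, a range that holds 0.135 and 0.205. These few values were not tested and cannot show whether the numbers mark pairs. All tests reported ignore the numbers, and the replicate block is an alternative. Same-numbered vehicle and 6 h arrays correlated at -0.12 and -0.074, and those of 6 h and 24 h at -0.064, -0.345 and 0.169. The highest correlations, 0.56 and 0.527, were between differently numbered 6 h and 24 h arrays. At most 3 intensities were identical between any 2 arrays. On simulated data for 6 h minus vehicle with 13710 genes, limma called 43% of 100 genes given a simulated shift of 1 (log2). It called 79% of 100 given a shift of 2, and 5 unchanged genes. The simulated noise was drawn separately for each gene, so differences that real arrays share across genes were not in it. These rates are therefore not the power of the real comparison.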

Additional observations from a re-analysis of the deposited data

How the results depend on the processing

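The count of AP-1 members called stayed at 0 in every comparison and setting except 1 member (Atf3) at 24 h with array weights. The median member difference from vehicle was -1.07 at 6 h and -0.84 at 24 h as deposited, where the median of all genes was -0.68 and -0.62. It was 0.0023 at 6 h without the 3 arrays of low actin ratio. Leaving out 1 array gave medians of -0.33 to -0.15 at 6 h, -0.39 to -0.15 at 24 h and -0.13 to 0.097 between 24 h and 6 h. The replicate block gave medians of -0.14, -0.28 and -0.19 and changed no member's call; with it Atf3 differed by -1.01 at 24 h (limma adjusted p = 0.358).

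At 6 h the side of vehicle turned as deposited for Fos (-0.38), Fosl2 (-0.37), Jund (-0.63), Creb1 (-0.45), Flg (-0.19), Egr3 (-0.14), Ier5 (-0.17), Plaur (-0.17) and Map3k1 (-0.29); with cyclic loess for Jund (-0.070); with the mean of probe sets for Fosl2 (-0.14); with array weights for Fos (-0.22); without the low-ratio arrays for Jun (0.063); and with the actin ratio as a covariate for Jun (0.20) and Mafg (0.20). At 24 h it turned as deposited for Fosl2 (-0.45), Creb1 (-0.32), Egr1 (-0.075) and Map3k1 (-0.21); after median scaling for Fosl2 (-0.017); with the mean of probe sets for Jund (0.19) and Crem (0.10); with array weights for Tgm3 (-0.070); without the low-ratio arrays for Jund (0.022); and with the covariate for Jun (0.058), Junb (0.0098) and Jund (0.36). Between 24 h and 6 h the sign turned after median scaling for Jun (-0.076); with the mean of probe sets for Fosl2 (0.31) and Jund (0.13); with array weights for Maff (-0.044) and Plaur (0.024); with the replicate block for Jun (-0.15), Maff (-0.0087) and Mafg (-0.087); without the low-ratio arrays for Jun (-0.25), Junb (-0.21), Mafg (-0.074) and Atf2 (0.054); and with the covariate for Jun (-0.14).

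Leaving out 1 array gave ranges that crossed 0 for Fos at 6 h (-0.15 to 0.76), Jund at 6 h (-0.17 to 0.42) and 24 h (-0.27 to 0.022), Junb at 24 h (-0.27 to 0.14), and between 24 h and 6 h for Jund (-0.51 to 0.078), Batf (-0.23 to 0.35), Jun (-0.12 to 0.30) and Fosl2 (-0.28 to 0.010). The cause of these turns was not tested. All genes called at 6 h numbered 0 in the reported fit, 859 as deposited (2 higher), 2498 with array weights (1057 higher), 18 with no filter, 7 with the mean of probe sets, 1 with the 2 groups alone and 1 with the replicate block; leaving out 1 array gave 0 to 23, the last without 24 h replicate 4. At 24 h these were 0, 6 as deposited, 59 with array weights, 1 with no filter and 2 with the 2 groups alone, and between 24 h and 6 h 423 with array weights and at most 7 in the other settings, those without 6 h replicate 5.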
